A study of Homo sapiens with 8 samples.

Results

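Mitophagy is the selective removal of mitochondria by autophagy, and 10 of its receptors and regulators were followed at the mRNA level after knockdown of IGF2R in cervical cancer cells. The genes were PINK1, OPTN, TBK1, BNIP3, BNIP3L, FUNDC1, FKBP8, BCL2L13, PHB2 and VDAC1, chosen by name for their known roles. All probe sets annotated with 1 of these genes alone were taken, which gave 22 probe sets. A probe set counted as measured where its signal reached 500 on at least 1 of the 8 arrays, and 16 of the 22 did so, covering 9 of the 10 genes, of 8961 measured genes in all. FKBP8 was the exception. Where 1 of these 9 genes had several measured probe sets, the brightest on average stands for it below, and the others are given beside it.

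BOKU and SKG-I, which are human cervical cancer cell lines, were transfected with an siRNA against IGF2R (siIGF2R) or a control siRNA (siCtrl) and collected after 72 h. IGF2R is the receptor that carries newly made lysosomal enzymes tagged with mannose-6-phosphate to the lysosome, and the study asked, among other questions, how its loss bears on autophagy and mitophagy. The groups were BOKU with siIGF2R, SKG-I with siIGF2R, BOKU with siCtrl and SKG-I with siCtrl. A single RNA sample stood for each group and was read on 2 arrays, so that the 8 arrays hold 4 RNA samples. The methods do not say which siRNA against IGF2R was used for the arrays. Untransfected cells were not analysed here.

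Signals are MAS5 values, which are brightness values on a linear scale. Duplicate arrays carried the same RNA, so their log2 signals were averaged, and the 2 cell lines were the replicates. Both lines entered 1 two-sided limma test of siIGF2R against siCtrl, with the line as a block, with p values adjusted by the Benjamini-Hochberg method over all 16517 measured probe sets and 0.05 as the threshold. Each error below is the standard error (SE) of a log2 change over the 2 lines. Within 1 line there was 1 RNA sample per siRNA, so changes in a line are descriptions with no test. Nothing in the labels shows that the lines were treated at separate times, and the p values cover no spread beyond these samples. The spread behind each SE and p value is not that of the 2 lines for that gene alone. Most of it is borrowed by limma from other probe sets (4.82 prior against 1 residual degree of freedom). An array reads the RNA of all cells in a dish, so that less mRNA per cell and fewer cells with that mRNA cannot be told apart.

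IGF2R itself had signals of 641 and 645 on the BOKU siIGF2R arrays, against 7288 and 6710.5 on the BOKU siCtrl arrays. In SKG-I it had 257 and 295 with siIGF2R, against 4120 and 3838 with siCtrl. Over both lines IGF2R had a log2 change of −3.65 (SE 0.21, adjusted p = 0.0221 from limma), with −3.44 in BOKU and −3.85 in SKG-I. Over the measured probe sets, the log2 difference between duplicates had a standard deviation of 0.27 to 0.35. As a check of the cell type, the keratins KRT8, KRT18 and KRT19 were measured in both lines, as were 5 of the 7 epithelial markers in at least 1 of them, without KRT5 and TP63. EPCAM was at 38.5 with siIGF2R and 34.4 with siCtrl in BOKU, against 1348.5 and 1527 in SKG-I. CDH1 was at 1 and 2.6 in BOKU, against 635.6 and 158.3 in SKG-I. EPCAM and CDH1 were thus near the floor in BOKU. VIM, the filament protein of mesenchymal cells, was at 19047 and 32362 in BOKU with siIGF2R and siCtrl, against 115 and 902 in SKG-I. The collagens of the same stromal list ran the other way, with COL1A1 at 1358 and 1381.5 in BOKU, against 4341 and 5629 in SKG-I, and COL3A1 at 20.3 and 22.5 in BOKU, against 1514 and 1989 in SKG-I. None of the 4 immune and endothelial markers with a probe set was measured (highest signal 480.3).

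Mitochondria are marked for removal along a pair of routes that both end at LC3 and its relatives, the Atg8 proteins of the growing autophagosome. In the ubiquitin route, the kinase PINK1 collects on mitochondria that have lost their membrane potential and phosphorylates ubiquitin there. Adaptors such as OPTN, which the kinase TBK1 phosphorylates, then link the ubiquitin to LC3, and VDAC1, the main pore of the outer membrane, is among the proteins tagged with ubiquitin. In the receptor route, BNIP3, BNIP3L (also called NIX), FUNDC1, FKBP8 and BCL2L13 sit in the outer membrane and bind LC3 directly, whereas PHB2 is an inner membrane protein that is exposed once the outer membrane breaks. BNIP3 is a textbook target of the hypoxia-inducible factor HIF in human cells, and others of these genes may be targets too.

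Start regions of the genes were read from RefSeq (GRCh38.p14), as windows of 250 bases before to 50 bases after each annotated start. Of the 10 genes, 7 had at least 1 window, 14 windows in all. BNIP3L, PINK1 and FKBP8 were the others. The windows were searched on both strands for ACGTG, 1 form of the core letters that HIF binds. The form GCGTG was not searched and is not marked below. The windows were also searched for CACGTG, the E-box read by MiT and MYC factors, which holds ACGTG on each strand. Of 35116 windows of the same length over all genes in the table, 21.4% held ACGTG and 7.26% CACGTG. These are shares of windows, whereas the matches below are given by gene. BNIP3L and PINK1, whose means were lower in both lines, had no window to search. BNIP3 and TBK1, the genes of this set with higher siIGF2R signals in both lines, each had a window with CACGTG. The motif started 134 bases before the start of BNIP3 and 31 bases before that of TBK1. Neither gene passed the test (adjusted p = 0.0967 and 0.412 from limma), and a link between motif and change was not tested. VDAC1, whose signal was lower in both lines, had ACGTG on the opposite strand in a pair of overlapping windows, and the window in which it starts 29 bases before the start is shown. These 3 windows are printed because they show each kind of match found in genes whose signals differed in opposite directions. The matching letters are in capitals, and a match is only a match of letters.
BNIP3 (chr10:131981874-131982173, minus strand): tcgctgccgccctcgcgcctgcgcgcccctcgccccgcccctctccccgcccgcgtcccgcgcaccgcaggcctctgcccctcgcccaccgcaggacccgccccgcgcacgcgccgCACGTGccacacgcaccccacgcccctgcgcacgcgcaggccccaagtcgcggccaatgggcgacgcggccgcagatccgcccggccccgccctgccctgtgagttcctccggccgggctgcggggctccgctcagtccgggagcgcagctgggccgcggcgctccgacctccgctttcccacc
TBK1 (chr12:64451870-64452169, plus strand): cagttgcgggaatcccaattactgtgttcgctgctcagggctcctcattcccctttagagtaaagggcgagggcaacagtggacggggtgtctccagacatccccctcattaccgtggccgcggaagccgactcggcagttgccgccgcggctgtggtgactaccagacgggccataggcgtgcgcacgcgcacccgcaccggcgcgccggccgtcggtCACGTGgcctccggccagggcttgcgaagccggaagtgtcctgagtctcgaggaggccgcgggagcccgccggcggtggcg
VDAC1 (chr5:134004926-134005225, minus strand): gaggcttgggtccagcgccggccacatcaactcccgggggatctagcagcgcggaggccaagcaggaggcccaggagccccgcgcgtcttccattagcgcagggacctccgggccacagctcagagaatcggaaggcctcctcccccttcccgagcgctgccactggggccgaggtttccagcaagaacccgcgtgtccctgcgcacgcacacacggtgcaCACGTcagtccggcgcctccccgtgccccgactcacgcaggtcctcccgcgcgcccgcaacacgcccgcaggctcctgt
The other 4 genes with a window, BCL2L13, FUNDC1, OPTN and PHB2, held neither motif in these windows.

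Of the 9 measured genes, BNIP3L and VDAC1 fell below their siCtrl level and passed the limma test, against 2.35% of all measured genes called lower. No gene passed in the higher direction, against 2.59% of all genes. By probe sets, 4 of the 16 measured were called lower, against 2.09% of all measured probe sets, and 0 were called higher, against 2.2%. At an unadjusted p under 0.05, 4 of the 9 were lower (BNIP3L, VDAC1, BCL2L13 and PINK1; 13.9% of all genes) and 1 was higher (BNIP3; 14.4% of all genes). By log2 means, 6 of the 9 were lower in both lines (35.7% of all genes), 2 were higher in both (35.7%), and OPTN was lower in BOKU and higher in SKG-I. PHB2 was among the 6, but was higher in BOKU with quantile normalization (log2 change 0.046). The median log2 change of the 9 genes was −0.47, beside 0.0063 over all measured genes. It was −0.38 in BOKU, beside 0.026 over all genes, and −0.56 in SKG-I, beside −0.028.

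**Figure D1:**
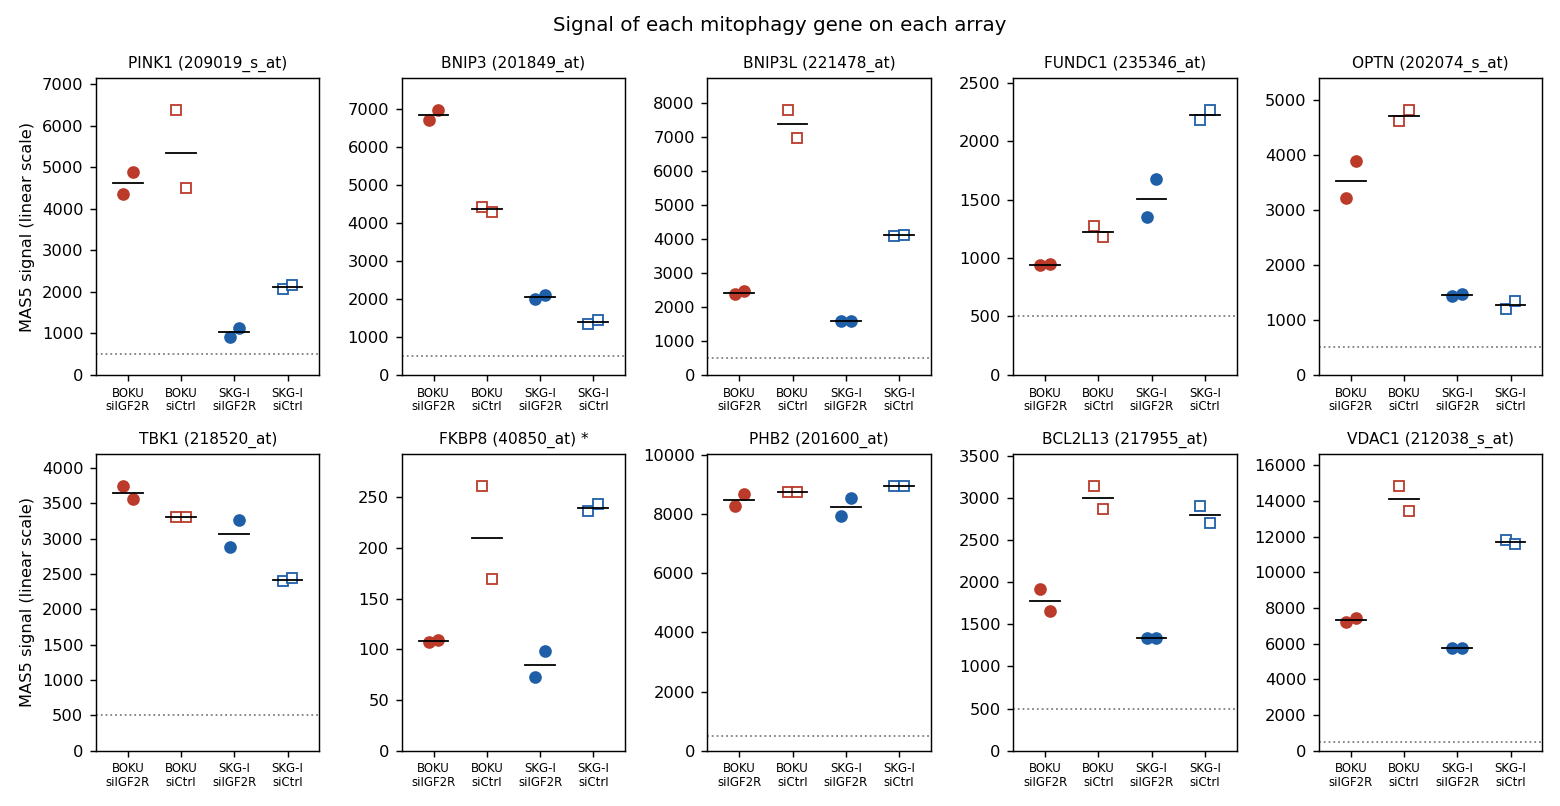
MAS5 signal (linear scale) of the probe set that stands for each gene, on each of the 8 arrays. Filled circles are siIGF2R arrays and open squares siCtrl arrays, red for BOKU and blue for SKG-I, bars are means of the duplicates, the dotted line is the minimum of 500, and the asterisk marks FKBP8, which stayed below it. BNIP3L and VDAC1 lie far below siCtrl in both lines with siIGF2R, whereas BNIP3 lies above it.

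BNIP3L had the largest change of the measured outer membrane receptors. It is the receptor that clears mitochondria from maturing red blood cells. In BOKU its signals were 2375 and 2453 with siIGF2R, against 7781 and 6975 with siCtrl. In SKG-I they were 1588 and 1578 with siIGF2R, against 4096 and 4119 with siCtrl. Both lines thus had every siIGF2R array below every siCtrl array, and 5 of the 9 measured genes did so (25.2% of all genes). BNIP3L fell 2.81-fold over both lines (log2 change −1.49, SE 0.18, adjusted p = 0.0231 from limma), by 3.05-fold in BOKU and by 2.59-fold in SKG-I. Counted from the lowest log2 change, it was number 129 of the 8961 genes. It was the only one of the 9 genes that was at least 2-fold lower in both lines (2.31% of all genes).

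The other BNIP3L probe set, 221479_s_at, had a larger change. Its signals were 993.5 and 1011 in BOKU with siIGF2R, against 4394 and 4265 with siCtrl. In SKG-I they were 876.5 and 838 with siIGF2R, against 2369 and 2518 with siCtrl. Its log2 change was −1.81 (SE 0.23, adjusted p = 0.0253 from limma), so that both probe sets of the gene were called. The study had itself picked this probe set on these arrays as lowered, which makes it no independent evidence of the direction.

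BNIP3, the closest relative of BNIP3L, had values of the opposite sign. In BOKU its signals were 6708 and 6976.5 with siIGF2R, against 4422 and 4304 with siCtrl. The signals in SKG-I were 2009.8 and 2108 with siIGF2R, against 1336 and 1439.5 with siCtrl. Every siIGF2R array was above every siCtrl array of its line, as for TBK1 and no other of the 9 genes (26.4% of all genes). The log2 change of BNIP3 was 0.61 (SE 0.17), a 1.53-fold higher signal, and it did not pass the test (unadjusted p = 0.0127, adjusted p = 0.0967 from limma). Its second probe set, 201848_s_at, had 0.47 (SE 0.20, adjusted p = 0.198 from limma). The 2 lines were close, with 0.65 in BOKU and 0.57 in SKG-I for the brighter probe set.

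FUNDC1, the receptor whose binding to LC3 is set by phosphorylation in hypoxia, had 943.7 and 945 in BOKU with siIGF2R, against 1273 and 1183 with siCtrl. In SKG-I, FUNDC1 had 1351 and 1677.5 with siIGF2R, against 2181 and 2266 with siCtrl. The arrays did not overlap in either line, and the log2 changes were −0.38 in BOKU and −0.56 in SKG-I. Over both lines FUNDC1 had −0.47 (SE 0.20), which did not pass the test (adjusted p = 0.197 from limma).

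BCL2L13, the mammalian counterpart of the yeast mitophagy receptor Atg32, came close to the threshold. In BOKU its signals were 1915 and 1660 with siIGF2R, against 3145 and 2875 with siCtrl. Its SKG-I signals were 1336 and 1334 with siIGF2R, against 2907 and 2706 with siCtrl. The siIGF2R arrays lay below the siCtrl arrays in both lines. Its log2 change was −0.91 (SE 0.19, adjusted p = 0.0606 from limma), with −0.75 in BOKU and −1.07 in SKG-I. The 2 other measured probe sets of the gene had −0.51 (223664_x_at, adjusted p = 0.216) and −0.97 (224035_s_at, adjusted p = 0.106, both from limma). BCL2L13 crossed the threshold with 64 added to each signal (−0.88, adjusted p = 0.0433 from limma), without BOKU siCtrl replicate 1 (−0.88, adjusted p = 0.0380 from limma) and without BOKU siIGF2R replicate 2 (−0.86, adjusted p = 0.0449 from limma).

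FKBP8, an outer membrane receptor of the FK506-binding family, was under 500 on every array and was not tested. The brightest of its 3 probe sets, 40850_at, had 107 and 109 in BOKU with siIGF2R, against 261 and 169 with siCtrl. The same probe set in SKG-I had 73.1 and 98 with siIGF2R, against 236 and 243 with siCtrl. The siIGF2R arrays were the dimmer ones in both lines for this probe set and for 208255_s_at, with log2 changes of −0.96 and −0.94 in BOKU and −1.50 and −0.75 in SKG-I for 40850_at and 208255_s_at. The remaining probe set, 222007_s_at, stayed at 5.2 or less on all arrays, near the lowest value of 1, and carries no measure of the gene.

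PINK1, the kinase that starts the ubiquitin route, had the widest gap between duplicates among the 9 probe sets that stand for the genes, 0.51 on the log2 scale for BOKU siCtrl. In BOKU its signals were 4358 and 4890.4 with siIGF2R, against 6376 and 4492 with siCtrl, and these arrays overlapped. In SKG-I they were 924 and 1141 with siIGF2R, against 2066 and 2162 with siCtrl, with no overlap. The log2 changes were −0.21 in BOKU and −1.04 in SKG-I, and over both lines −0.63 (SE 0.25, adjusted p = 0.175 from limma). The value in BOKU rested on 1 array, since it was 0.039 without BOKU siCtrl replicate 1.

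The second PINK1 probe set, 209018_s_at, separated the arrays in both lines. In BOKU it had 3669 and 3916.5 with siIGF2R, against 5989 and 6729.7 with siCtrl. SKG-I arrays had 797 and 749 with siIGF2R, against 2433 and 2191 with siCtrl. Its log2 changes were −0.74 in BOKU and −1.58 in SKG-I, and over both lines it had −1.16 (SE 0.25, adjusted p = 0.0609 from limma). Both PINK1 probe sets therefore had lower siIGF2R means in both lines, and neither passed the test.

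OPTN, the ubiquitin-binding adaptor, had opposite directions in the lines. In BOKU its signals were 3213 and 3882.5 with siIGF2R, against 4616 and 4813 with siCtrl, which puts siIGF2R below. Its SKG-I signals were 1441 and 1468 with siIGF2R, against 1191 and 1343 with siCtrl, which puts it above. The log2 changes were −0.42 in BOKU and 0.20 in SKG-I, with −0.11 over both lines (SE 0.22, adjusted p = 0.782 from limma). Of all measured genes, 13.3% had arrays apart in opposite directions in the lines. The other OPTN probe set, 202073_at, had −0.029 in BOKU, where its arrays overlapped, and 0.43 in SKG-I (0.20 over both lines, adjusted p = 0.596 from limma).

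TBK1 had 3745 and 3556 in BOKU with siIGF2R, against 3304 and 3300.3 with siCtrl. In SKG-I, TBK1 had 2879.9 and 3264 with siIGF2R, against 2395 and 2435 with siCtrl. All siIGF2R arrays were thus the brighter ones, by a small margin, with log2 changes of 0.14 in BOKU and 0.34 in SKG-I. Over both lines TBK1 had 0.24 (SE 0.18, adjusted p = 0.412 from limma).

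VDAC1 fell by nearly the same amount in both lines. In BOKU its signals were 7217 and 7425 with siIGF2R, against 14847 and 13412 with siCtrl. The signals in SKG-I were 5763 and 5729 with siIGF2R, against 11810.2 and 11584 with siCtrl. The arrays were far apart in each line next to the gaps between duplicates. VDAC1 fell 1.98-fold (log2 change −0.99, SE 0.13, adjusted p = 0.0287 from limma), by 1.93-fold in BOKU and by 2.04-fold in SKG-I, and was number 392 from the lowest log2 change of the 8961 genes. Its other probe set, 217140_s_at, had a log2 change of −1.10 in each line and was also called (adjusted p = 0.0304 from limma).

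PHB2, the inner membrane receptor, had 8279 and 8697 in BOKU with siIGF2R, against 8761 and 8744 with siCtrl. In SKG-I, PHB2 had 7954 and 8534 with siIGF2R, against 8957 and 8959 with siCtrl. Its siIGF2R arrays lay just below the siCtrl arrays, and the log2 change was −0.083 (SE 0.13, adjusted p = 0.724 from limma). This was the smallest change of the 9 genes, and its sign turned with quantile normalization (0.018) and with the median change of its signal class subtracted (0.024, a setting chosen after seeing the data).

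**Figure D2:**
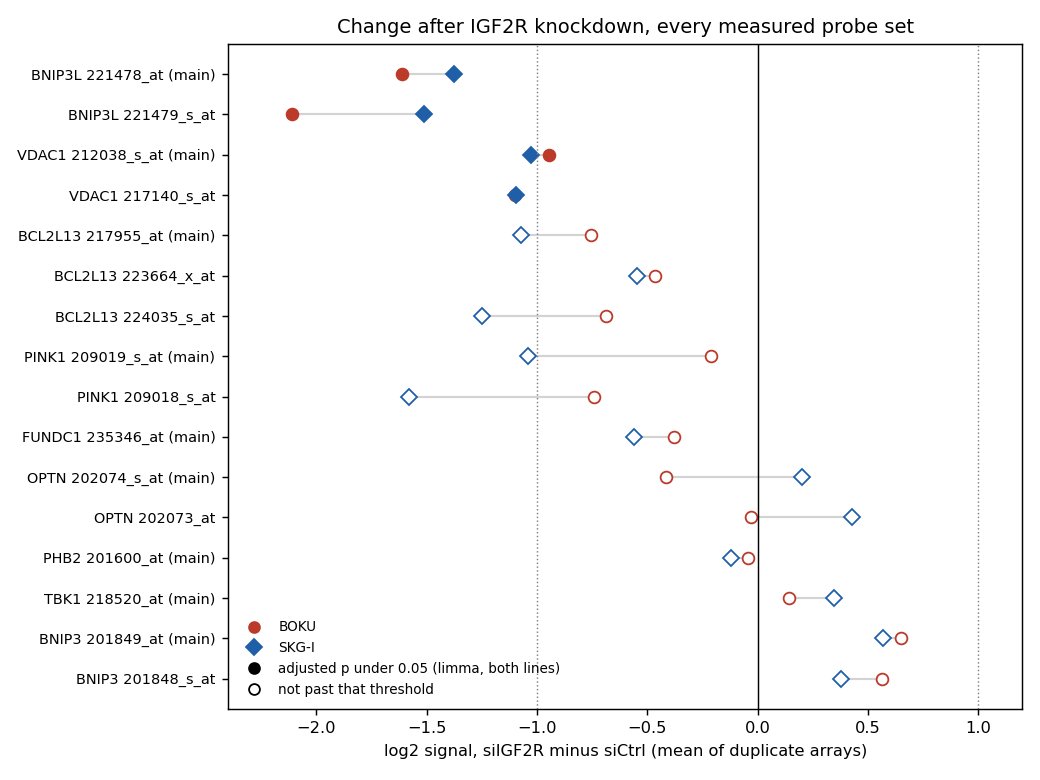
Log2 signal, siIGF2R minus siCtrl, of all 16 measured probe sets of the genes, as means of duplicate arrays in BOKU (red circles) and SKG-I (blue diamonds). Filled symbols mark probe sets with an adjusted p under 0.05 over both lines (limma), and dotted lines mark 2-fold. Both probe sets of BNIP3L and of VDAC1 are filled, the VDAC1 symbols nearly coincide, and both probe sets of BNIP3 lie right of 0.

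Counted by size, 1 of the 9 genes was at least 2-fold lower in BOKU (4.98% of all genes), and 4 were in SKG-I (6.33%). BNIP3L was the gene in BOKU, and PINK1, BNIP3L, BCL2L13 and VDAC1 were those in SKG-I. None was at least 2-fold higher in BOKU (7.95% of all genes), in SKG-I (8.21%) or in both (3.14%). The difference between the responses of the lines could not be tested, as no residual degree of freedom is left for it with 4 RNA samples. The BNIP3L and VDAC1 calls were lost in a fit without a variance trend (adjusted p = 0.102 and 0.120 from limma), and they were also lost without the line as a block. Leaving out each array in turn kept both, with adjusted p values of 0.00459 to 0.0313 for BNIP3L and 0.0108 to 0.0382 for VDAC1 (limma).

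With siCtrl alone, most of these genes had higher signals in BOKU than in SKG-I. OPTN differed most, with signals of 4616 and 4813 in BOKU, against 1191 and 1343 in SKG-I (log2 difference 1.90). BNIP3 had 4422 and 4304 in BOKU, against 1336 and 1439.5 in SKG-I (log2 difference 1.65), and PINK1 had 6376 and 4492 in BOKU, against 2066 and 2162 in SKG-I (log2 difference 1.34). These 3 were at least 2-fold higher in BOKU, against 15.6% of all genes, and none was 2-fold lower (18.9% of all genes). BNIP3L (0.84), TBK1 (0.45), VDAC1 (0.27) and BCL2L13 (0.10) were also higher in BOKU by their log2 means, and the arrays of BCL2L13 overlapped. PHB2 had a log2 difference of −0.033, or 0.013 with median scaling. FUNDC1 was lower in BOKU, with 1273 and 1183, against 2181 and 2266 in SKG-I (log2 difference −0.86). Over the 9 genes the median log2 difference was 0.45, beside −0.084 over all measured genes. Each line gave 1 siCtrl RNA sample, so these are descriptions with no test.

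**Figure D3:**
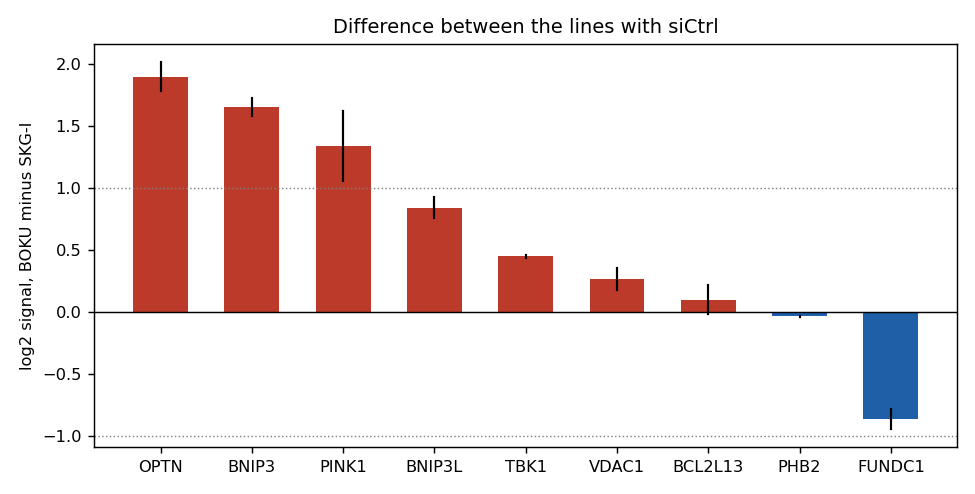
Difference in log2 signal between BOKU and SKG-I on the siCtrl arrays, for the probe set that stands for each gene. Bars are differences of the means of duplicates, black lines span the 4 differences between single arrays, red marks a higher signal in BOKU and blue a lower one, and dotted lines mark 2-fold. OPTN, BNIP3 and PINK1 pass 2-fold, and FUNDC1 is the clear exception below 0.

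The genes were set beside 14 lists of their partners, 108 genes in all, of which 93 were measured. In these lists 1 gene was called higher (2.59% of all genes) and 3 were called lower (2.35%). A higher log2 mean in both lines was seen for 23 (35.7% of all genes) and a lower one for 46 (35.7%). Their median log2 change was −0.10, beside 0.0063 over all measured genes. At an unadjusted p under 0.05, 5 were higher (14.4% of all genes) and 18 lower (13.9%).

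Among the VDAC partners, SLC25A4, the ADP/ATP carrier of the inner membrane, rose while VDAC1 fell. SLC25A4 had 2744 and 2957 in BOKU with siIGF2R, against 1122 and 1189 with siCtrl. In SKG-I, SLC25A4 had 3625 and 3679.6 with siIGF2R, against 951 and 1044 with siCtrl. Its log2 change was 1.59 (SE 0.22, adjusted p = 0.0298 from limma), a 3.01-fold rise. Of the VDAC paralogs, VDAC2 had a log2 change of −0.28 and VDAC3 one of 0.16, and neither passed the test. The 7 measured genes of this list had a median of 0.23.

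In the list of mitochondrial fission and fusion all 10 genes were measured, 1 was called lower (2.35% of all genes), and the median log2 change was −0.40, beside 0.0063 over all genes. FIS1, the outer membrane protein that takes part in fission, fell 1.95-fold (log2 change −0.97, SE 0.17, adjusted p = 0.0438 from limma). It had 1755.5 and 2098 in BOKU with siIGF2R, against 3331 and 3701 with siCtrl, and in SKG-I 3108 and 3111.5 with siIGF2R, against 6565 and 6419 with siCtrl. The arrays were apart in both lines. The FIS1 call was lost without BOKU siCtrl replicate 2 (−0.93, adjusted p = 0.0574 from limma) and without BOKU siIGF2R replicate 1 (−0.90, adjusted p = 0.0576 from limma), and with a signal minimum of 250 (adjusted p = 0.0558 from limma). OMA1, a stress protease that cleaves the fusion protein OPA1, had −0.92 (adjusted p = 0.0630 from limma) and did not pass. No gene of this list had a higher mean in both lines.

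The 5 other ubiquitin-binding adaptors had a median log2 change of −0.42, and none was called by its brightest probe set. SQSTM1, which encodes the adaptor p62, had 11149 and 11812 in BOKU with siIGF2R, against 16473 and 16261 with siCtrl. In SKG-I, SQSTM1 had 4067 and 3910.4 with siIGF2R, against 7868 and 7300.3 with siCtrl. Its log2 change was −0.72 (adjusted p = 0.0652 from limma), and its 2 dimmer probe sets disagreed. One, 213112_s_at, had −2.01 and was called (adjusted p = 0.0408 from limma), and the other, 244804_at, had −0.040 (adjusted p = 0.946 from limma). The 4 measured Atg8 genes had a median of −0.18 and no call, with −0.42 for GABARAP and −0.51 for GABARAPL1 (adjusted p = 0.163 and 0.183 from limma).

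The lists around PINK1 held no call. Of the ubiquitin ligases, deubiquitinases and substrates 11 of 14 genes were measured, with a median log2 change of −0.083. MUL1, a ubiquitin ligase of the outer membrane, had −1.15 (adjusted p = 0.0819 from limma). MUL1 was dim and reached the signal minimum only on the BOKU siCtrl arrays, at 578.5 and 711.1. Of the genes of PINK1 import and processing 11 of 13 were measured, with a median of −0.12. The prohibitin partners, all 5 measured, had a median of −0.38, and CLPB, a disaggregase of the intermembrane space, had −1.65 (adjusted p = 0.0521 from limma). CLPB was dim too and reached the minimum only on BOKU siCtrl replicate 2, at 765.4. Reaching the minimum with siCtrl alone favours a lower siIGF2R signal, so the MUL1 and CLPB values are weak evidence of a fall. In the list of 5 kinases that act on the receptors, 4 were measured, and CSNK2A2, a catalytic subunit of CK2, which phosphorylates FUNDC1, had −0.77 (adjusted p = 0.0802 from limma). A second CSNK2A2 probe set had the opposite sign in both lines, 0.50 in BOKU and 0.48 in SKG-I (0.49 over both, adjusted p = 0.195 from limma). SRC, another kinase of this list, had 1.23 (adjusted p = 0.120 from limma), with 0.88 in BOKU and 1.59 in SKG-I. It was dim, with 57.7 and 115.3 on the SKG-I siCtrl arrays. SRC reached the minimum only on BOKU siIGF2R replicate 2, at 561.9, which favours a rise in the same way. By log2 means, 2 of the 4 kinases were lower in both lines and 2 were higher, and their median was −0.082. The 3 measured TBK1 partners had a median of −0.10, the 4 measured genes among other receptors and cofactors 0.046, and the 4 measured BCL2 family partners −0.13, with no call in any of these lists.

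Since BNIP3 is a HIF target, and others of these genes may be too, the HIF factors and other hypoxia-induced genes were listed as well. ARNT, the constant partner of the HIF alpha subunits, fell 2.83-fold (log2 change −1.50, SE 0.27, adjusted p = 0.0460 from limma). A dimmer ARNT probe set had −1.70 (adjusted p = 0.0935 from limma). The brighter one had 207 and 237 in BOKU with siIGF2R, against 565.5 and 451 with siCtrl, and in SKG-I 335 and 432 with siIGF2R, against 1278 and 1396 with siCtrl. HIF1A had a log2 change of 0.35 (adjusted p = 0.187 from limma). The ARNT call was lost without BOKU siIGF2R replicate 1 (−1.45, adjusted p = 0.0584 from limma) and with a signal minimum of 250 (adjusted p = 0.0533 from limma). The median over the 7 genes of this list was 0.27.

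Of the 12 hypoxia-induced genes 11 were measured, and they had a median log2 change of −0.086. SLC2A1, the glucose transporter GLUT1, fell 3.16-fold (log2 change −1.66, SE 0.27, adjusted p = 0.0392 from limma). It had 387.5 and 431 in BOKU with siIGF2R, against 1597 and 1925 with siCtrl, and in SKG-I 731 and 688 with siIGF2R, against 1538.5 and 1764 with siCtrl. VEGFA had a log2 change of 0.86 (adjusted p = 0.122 from limma), with 1.38 in BOKU and 0.34 in SKG-I. Its 3 other measured probe sets had 0.28 to 0.43 over both lines and −0.41 to −0.025 in SKG-I, so that its sign in SKG-I differed between probe sets. The SLC2A1 call was lost with a signal minimum of 250 (adjusted p = 0.0523 from limma).

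A list of mitochondrial content, with enzymes, chaperones and respiratory chain subunits, had 11 measured genes of 12, no call and a median log2 change of −0.11. UQCRC2, a subunit of complex III, had −0.65 (adjusted p = 0.0702 from limma), and the chaperone HSPD1 had 0.33 (adjusted p = 0.122 from limma). Of all genes, 2.35% were called lower and 2.59% higher, so no call among 11 genes says little. By log2 means, 5 of the 11 were lower in both lines and 2 were higher in both (35.7% of all genes each). VDAC1 and BNIP3L were called, and whether they differ from this list was not tested.

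**Figure D4:**
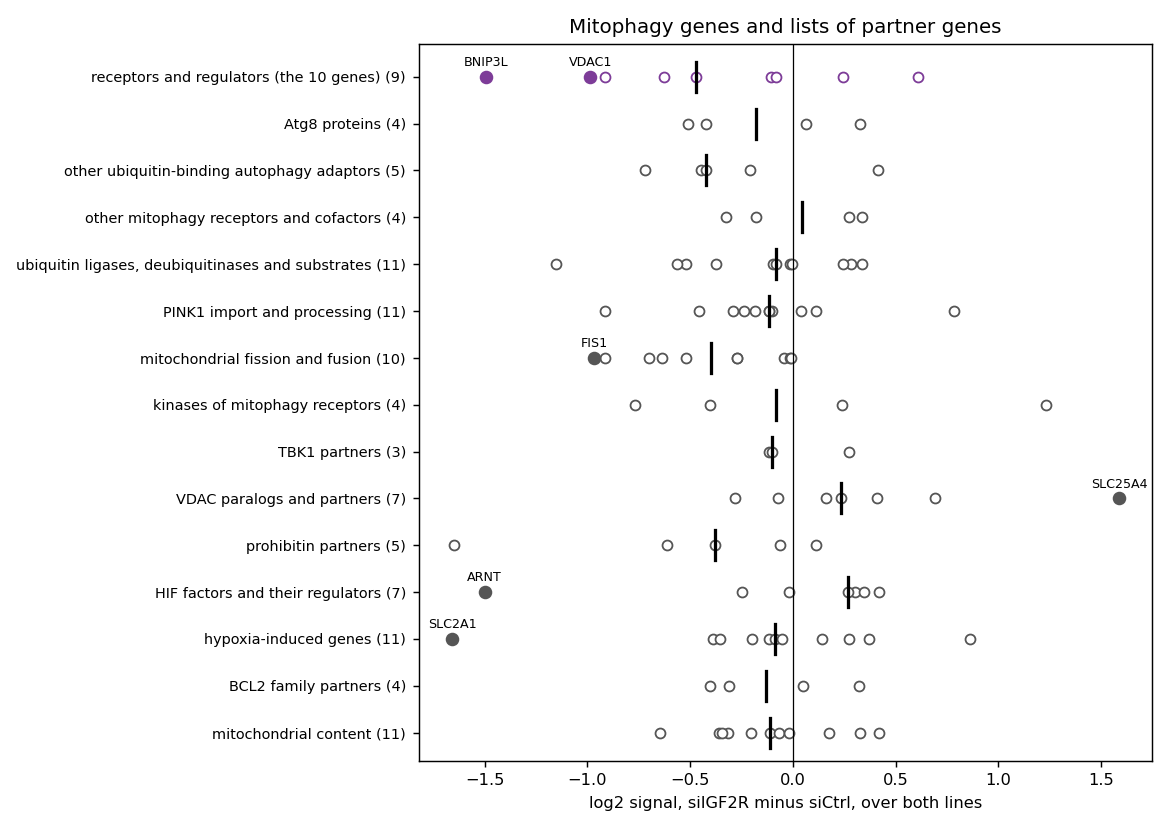
Log2 signal, siIGF2R minus siCtrl over both lines, of each measured gene in the set of mitophagy genes (purple, top) and in the 14 partner lists (grey), with how many genes were measured given in brackets. Each circle is 1 gene, filled and named where the adjusted p was under 0.05 (limma), and the black bar is the median of the list. The medians of the partner lists run from −0.42 to 0.27, beside −0.47 for the 9 mitophagy genes.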

How the data were processed

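Total RNA was read on GeneChip U133 Plus 2.0 arrays, and the authors deposited MAS5 signals, an intensity on a linear scale, after background subtraction and scaling. In the deposited values the 2% trimmed mean was 497 on each array and the lowest value 1. The methods state scaling to a common mean that does not match this level, so the minimum of 500 may not stand for the same brightness as in the study. Gene names came from the platform annotation. Without the 62 control probe sets, 16517 of 54613 others (30.2%) reached 500 on at least 1 array. Log2 signals of duplicates were averaged, and the 4 means were fitted with limma 3.58.1 in R 4.3.3 (line as block, variance trend, 1 residual and 4.82 prior degrees of freedom). The fit was tested on simulated data with known changes. Each of 10 runs changed 200 of 16517 probe sets. The fit recovered 0.3% of the changes at a log2 change of 1, 68.95% at 2 and 86.45% at 3. On average 0.8 of 1.4 calls were false at 1, 10.8 of 148.7 at 2 and 12.9 of 185.8 at 3. The deposited data gave more calls (346 lower and 363 higher), which eases the adjusted threshold, so these shares need not hold for them. A gene with a change near 2-fold that did not pass is therefore not shown to be unchanged. The small number of RNA samples, 4 in all with 1 for each line and siRNA, limits the precision. All 10 genes were named, and in the partner lists called genes and the 1 or 2 with the smallest p. VDAC2 and VDAC3 were named outside this rule after values had been seen. The genes, lists and tests were chosen with earlier results of these data known. Alternatives covered filters, normalization, floors, the variance model, blocks, choice of probe set, the methods' t-test and leaving out each array.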

Additional observations from a re-analysis of the deposited data

Results flagged for a closer look

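OPTN was picked out because all its siIGF2R arrays lay below the siCtrl arrays in BOKU and above them in SKG-I. Its log2 change in BOKU minus that in SKG-I was −0.62. This difference was not tested, with a single RNA sample for each siRNA in a line. Of all measured genes, 13.3% had arrays apart in opposite directions. The second OPTN probe set overlapped between siRNAs in BOKU.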

How the results depend on the processing

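Over all probe sets, 346 were called lower and 363 higher. These counts were 575 and 655 with 64 added to each signal, 0 and 0 without the variance trend (at an unadjusted p under 0.05 from limma, 945 genes below and 1119 above siCtrl), 0 and 0 without the line block (193 and 191 genes), 3833 and 4269 with arrays as separate samples, 3609 and 3992 with the array number as a replicate block, and 105 and 125 by the methods' t-test with the 2-fold rule after Benjamini-Hochberg adjustment. Leaving out 1 array gave 233 to 759 lower and 216 to 838 higher. The highest counts came without BOKU siCtrl replicate 1 and the lowest without BOKU siCtrl replicate 2, and without BOKU siIGF2R replicate 2 they were 665 and 786.

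Of the mitophagy genes, 2 were called lower and 0 higher. With arrays as separate samples there were 5 and 2, and with the replicate block also 5 and 2, but these fits count arrays of the same RNA as replicates. There were 0 lower without the trend or the line block, 1 with probe sets free of the _s_at or _x_at suffix, which leave out VDAC1 and PINK1, and 1 by the methods' t-test (BNIP3L, also after adjustment). With 64 added there were 3 lower, BCL2L13 being the third. Leaving out 1 array gave 2 to 3 lower and 0 higher. Same-numbered arrays deviated together only weakly, with correlations of −0.01 to 0.13, the highest between the BOKU groups. These values do not settle whether the numbers pair samples. The median change was −0.083 with the suffix rule and −0.55 to −0.39 without 1 array. OPTN turned to 0.046 with the mean of its probe sets and 0.20 with the suffix rule. PHB2 turned to 0.018 with quantile normalization and, in a setting chosen after seeing the data, to 0.024 with the median of 10 signal classes subtracted. The other 7 measured genes kept their direction over both lines in all settings. The calls of SLC25A4, FIS1, ARNT and SLC2A1 were lost without the trend or the line block, and those of FIS1, ARNT and SLC2A1 also with a minimum of 250 or the mean of all probe sets.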
